A study of Mus musculus with 57 samples.

Results

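The osteoblast lineage genes described here are 9 genes, picked as the rows of the deposited count table that carry an Ensembl gene identifier and the gene name Runx2, Sp7, Alpl, Phex, Pth1r, Ibsp, Spp1, Bglap or Dmp1. They are 9 of 56332 genes in the table, of which 47712 have Ensembl identifiers. The mice were male C57BL/6, 8 weeks old, and were given either control antibody or anti-PAPP-A antibody (aPAPPA in the labels) over 4 weeks. All animals were of this 1 strain and sex, and no transgene or deletion is named in the labels. Bone marrow RNA was sequenced unsorted (whole bone marrow, WBM, control mice only) or after sorting. The sorted populations were the MSC (mesenchymal stromal cells), the blood stem cells or HSC, the lymphoid progenitors or CLP, the GMP that give granulocytes and monocytes, the MEP that give platelets and red cells, and Myeloid cells. The 57 libraries came from 10 control and 10 treated pools of mice. A pool is the replicate, the number of mice in a pool is not in the labels, and neither are the antibodies used for the sort.

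Osteoblasts arise from stromal progenitors under the transcription factors RUNX2 and, downstream of it, SP7 (osterix). They lay down collagen and acidic matrix proteins, mineralise them with the help of alkaline phosphatase, and some become osteocytes buried in the bone. Parathyroid hormone acts on this lineage through PTH1R. PAPP-A is a secreted protease that cleaves insulin-like growth factor binding proteins, and insulin-like growth factor is a growth signal for osteoblasts.

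Some libraries stood apart before any comparison. Totals ran from 107412 to 125537299 counts per library, and 2 of the 10 MSC libraries, control pool 7 (321860 counts) and treated pool 8 (499300 counts), were shallow. The other libraries under 1000000 counts were treated HSC pool 6 (107412 counts) and control CLP pool 5 (587316 counts). Batch A holds 1 treated MSC library, pool 8, against control pools 3, 5 and 7. Batch C holds MSC control pools 15, 17 and 19 and treated pools 16, 18 and 20. The summed level of 12 neutrophil markers was 7755 CPM (counts scaled to 1000000 per library) in control pool 7 and 12364 CPM in treated pool 8, against 1170 to 2762 CPM in the other 8 MSC libraries. These sums are on a scale set over the 10 MSC libraries. Among CLP, control pool 1 and treated pool 2 carried bone transcripts that were at or near 0 in the other 6 libraries, as given with the CLP values. The MSC sort carried its defining stromal markers: Lepr had a median of 2956 CPM in control and 3474 CPM in treated libraries, Cxcl12 had 37376 and 48033 CPM, and none of 19 stromal markers was at 0 in any MSC library. Cdh5, a marker of endothelial cells, was at 5.20 CPM or below, and the cartilage gene Acan at 5.64 CPM or below, in each MSC library. Ctsk, known from osteoclasts, had a median of 209 CPM in control MSC.

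In control mice each of the 9 genes had its highest mean level in MSC, and for 8 of them the lowest MSC library stood above the highest library of the next population. Runx2 was the exception. CPM values across populations are scaled by TMM (trimmed mean of M-values) over all 57 libraries. A lower level in a bulk population can mean fewer cells of a type or less RNA per cell, and these cannot be told apart.

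Runx2, the transcription factor at the head of the lineage, was at 130 CPM in the lowest, 218 CPM in the median and 271 CPM in the highest of 6 control MSC libraries. In CLP it was at 252, 121, 49.8 and 75.0 CPM in pools 1, 3, 5 and 7. The MSC and CLP ranges overlapped through CLP pool 1 alone, a library set apart above for its bone transcripts. The means then ran from 71.5 ± 16.5 CPM in HSC (SD, n = 3) through 60.4 ± 7.77 in GMP (n = 4), 49.1 ± 14.0 in Myeloid (n = 6) and 39.1 ± 6.62 in WBM (n = 4) to 27.8 ± 6.99 in MEP (n = 4), each overlapping its neighbour in this order. Runx2 was thus measured well above 0 in every population. Sp7, which acts after Runx2, was at 46.8, 80.1 and 98.0 CPM in the lowest, median and highest control MSC library. The highest WBM library had 2.65 CPM, and GMP had 0 counts of Sp7 in 4 libraries.

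Alpl encodes the alkaline phosphatase of bone, which frees phosphate for mineral. Its level was 118, 180 and 374 CPM in the lowest, median and highest control MSC library, and it was next in CLP, where pools 1, 3, 5 and 7 had 0.544, 7.66, 5.54 and 25.0 CPM, from 2, 80, 4 and 35 counts. Of these 4 control libraries, pool 1 had the lowest Alpl and the highest Ibsp, Bglap and Dmp1. Phex, an endopeptidase of osteoblasts and osteocytes whose loss causes phosphate wasting, was at 57.2, 141 and 199 CPM in MSC and at 0.548 CPM or below in each control library of the other 6 populations. Pth1r, the receptor for parathyroid hormone, was at 108, 183 and 328 CPM in MSC and at 2.18 CPM or below elsewhere.

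Ibsp and Spp1, which encode acidic matrix proteins, were the most abundant members. Ibsp, bone sialoprotein, was at 2498, 4806 and 5618 CPM in the lowest, median and highest control MSC library. In WBM it was at 2.06, 2.10, 6.84 and 16.6 CPM in pools 1, 5, 7 and 15, and its MSC mean was 657 times the WBM mean. Spp1, osteopontin, which macrophages also make, was at 1228, 3630 and 6558 CPM in MSC. Myeloid cells came next for Spp1, at 20.5, 50.8 and 103 CPM, followed by WBM at 28.4 ± 12.1 CPM (SD, n = 4), with overlapping ranges. Bglap, osteocalcin, was at 155, 259 and 874 CPM in MSC. In WBM Bglap was at 8.31, 12.3, 68.0 and 23.9 CPM in pools 1, 5, 7 and 15. Dmp1, a matrix protein typical of osteocytes, was the least abundant member in MSC, at 13.6, 24.0 and 31.2 CPM.

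Per kilobase of exon, which allows genes to be set side by side, the mean levels in control MSC were 2226 CPM per kilobase for Spp1, 2188 for Ibsp and 557 for Bglap. The other 6 lay between 67.2 CPM per kilobase for Pth1r and 8.50 for Dmp1, with Alpl at 53.7, Runx2 at 24.1, Sp7 at 21.8 and Phex at 21.1. The SDs of Spp1 (1306) and Ibsp (547) exceeded the difference between their means.

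**Figure D1:**
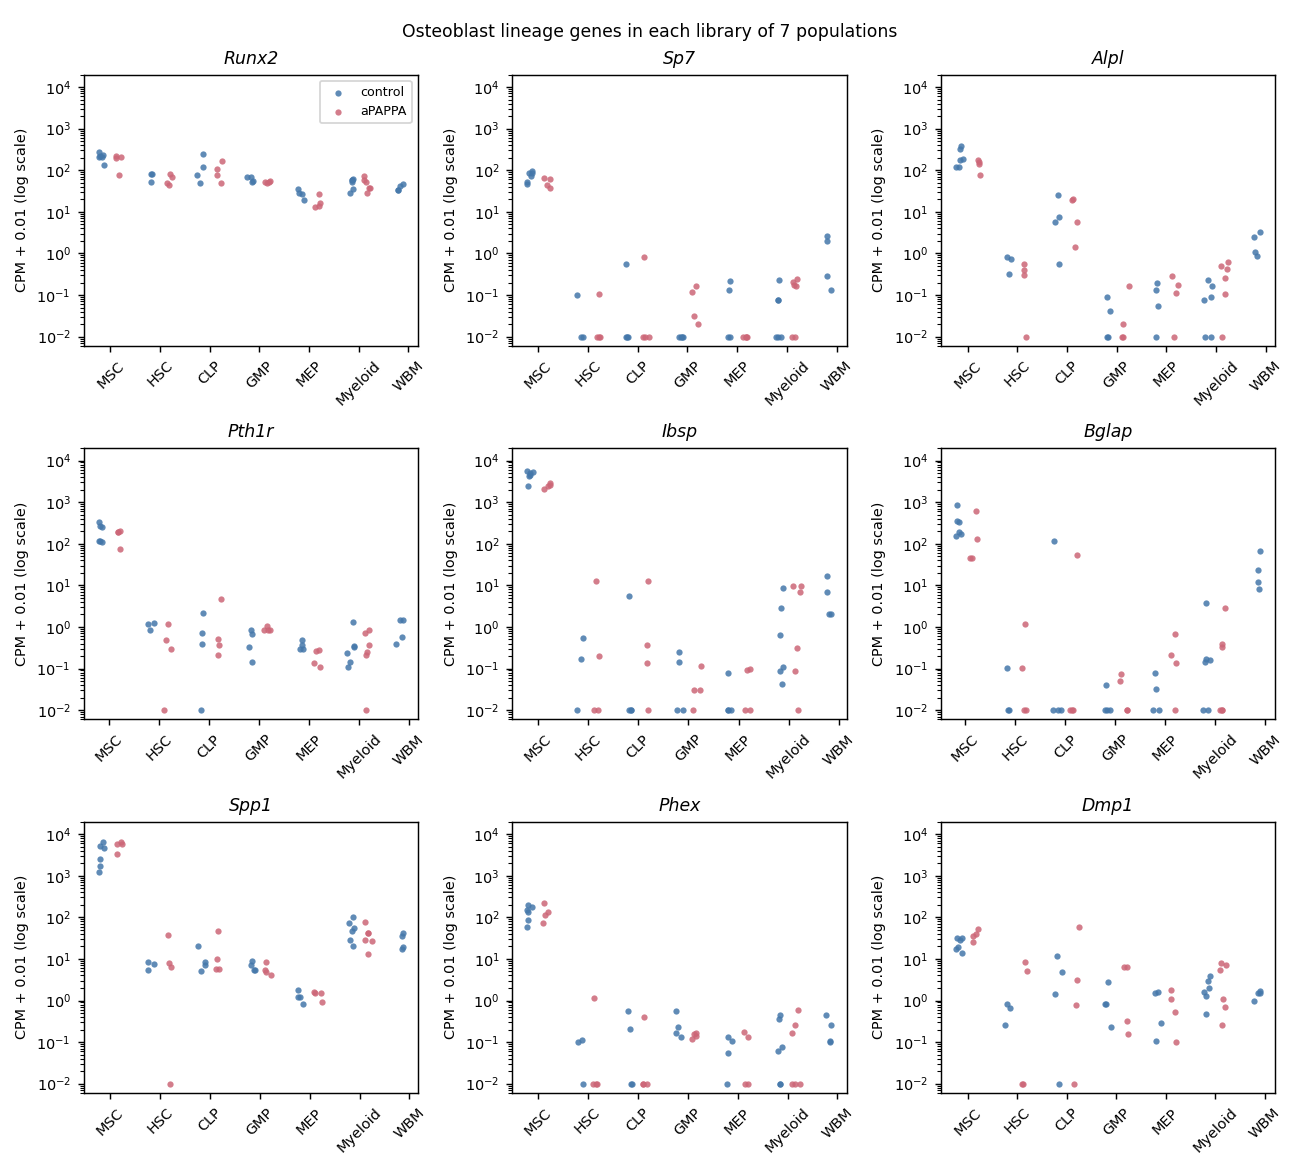
CPM plus 0.01 on a log scale for the 9 genes in each of the 57 libraries, by population, with control libraries in blue and anti-PAPP-A libraries in red (WBM has controls only). The control MSC mean is the highest for each gene. CLP points reach MSC levels for Runx2, the highest being those of control pool 1 (252 CPM) and treated pool 2 (163 CPM). The Dmp1 point of treated CLP pool 2 (57.4 CPM) stands above every MSC library.

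The edgeR quasi-likelihood test of control MSC against the mean of the other 5 sorted populations called 9 of 9 members higher in MSC, where 28.7% of the 21384 genes tested were called higher and 48.8% in either direction. The log2 difference was 2.09 (SE 0.206) for Runx2, 4.23 (SE 0.505) for Dmp1, 8.20 (SE 0.334) for Pth1r, 8.33 (SE 0.265) for Spp1 and 9.51 (SE 0.481) for Alpl. Fitted differences of the other 4 are not given, since several populations had almost no counts of them. A gene with almost no counts outside MSC could only be called higher in MSC. For these 4 the direction of the call was thus set in advance, and it is no separate result. Alpl also had few counts in control GMP (2), MEP (5) and Myeloid (17) libraries, so its fitted difference rests in part on values near 0. Against WBM, 9 of 9 members were again called higher in MSC, where 23.1% of 17169 genes were and 49.2% were called in either direction. Those log2 differences were 9.40 (SE 0.635) for Ibsp and 9.31 (SE 0.599) for Phex at the top, and 3.71 (SE 0.698) for Bglap and 2.47 (SE 0.269) for Runx2 at the bottom. Phex had 23 counts over the 4 WBM libraries, so its difference rests on values near 0. The largest of the 9 adjusted p-values against WBM was 7.66e-04, for Bglap (edgeR, Benjamini-Hochberg).

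Ibsp, Spp1 and Dmp1 are neighbours in the genome, and Bglap has near-identical copies beside it. On the GRCm38 build (GENCODE M21), Dmp1 is at chr5:104202613-104214102, Ibsp at chr5:104299171-104311469 and Spp1 at chr5:104435118-104441050, all on the plus strand within 238438 bases. Bglap is at chr3:88383501-88384464 on the minus strand, with Bglap2 4801 bases away at chr3:88377736-88378699. The coding sequences of Bglap and Bglap2 are shown because counts can move between them. Both have 288 bases, and capitals mark the 4 positions at which they differ (98.6% identical).
Bglap: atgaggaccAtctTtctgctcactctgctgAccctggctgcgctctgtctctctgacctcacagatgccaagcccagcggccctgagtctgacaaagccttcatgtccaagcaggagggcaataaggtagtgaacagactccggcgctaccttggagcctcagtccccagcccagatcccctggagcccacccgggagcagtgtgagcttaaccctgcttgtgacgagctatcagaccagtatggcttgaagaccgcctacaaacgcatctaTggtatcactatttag
Bglap2: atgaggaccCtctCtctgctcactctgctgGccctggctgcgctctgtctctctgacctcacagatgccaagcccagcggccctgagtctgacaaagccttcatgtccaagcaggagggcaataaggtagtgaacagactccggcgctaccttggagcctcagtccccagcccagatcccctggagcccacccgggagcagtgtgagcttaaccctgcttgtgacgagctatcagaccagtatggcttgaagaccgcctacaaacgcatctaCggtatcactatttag
Of 588 31-base words in Bglap transcripts, 62.9% also occur in another gene, 330 of them in Bglap2, so the split of counts between the copies is uncertain. None of the words of Ibsp, Alpl or Pth1r occurs in another gene, while 14.3% of those of Spp1 are shared with Gm42793, an overlapping transcript of the same strand that had at most 8.92 CPM in an MSC library. Runx2 (chr17:44495987-44814797, minus strand) overlaps Supt3 and 3 antisense genes, and Pth1r (chr9:110722085-110747145, minus strand) overlaps Myl3 on the opposite strand. The kit marks strand, but whether strand was used in quantification is not given in the sources used here. The remaining members are Alpl (chr4:137741733-137796384, minus strand), Sp7 (chr15:102356606-102367182, minus strand) and Phex (chrX:157162075-157415312, minus strand).

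RUNX proteins bind the core TGTGGT, read ACCACA on the other strand. RefSeq promoters (GRCm38.p6; 250 bases before to 50 after the start) were found for 8 of 9 members, all but Sp7. The core was present on either strand in promoters of 4 of these 8 genes (Bglap, Spp1, Dmp1 and Runx2), against 18.9% of 27025 genes, and in 16.8% of 32851 single promoters. It was not found in the windows of Ibsp, Alpl, Phex or Pth1r. A match describes letters and not a bound site. The bases before the start are printed for the 3 matrix genes with the core there and for Ibsp, with the core in capitals. Ibsp is the member that passed the treatment test in MSC, a call that was lost in most fits leaving out a pool.
Bglap, chr3:88384467-88384716, minus strand: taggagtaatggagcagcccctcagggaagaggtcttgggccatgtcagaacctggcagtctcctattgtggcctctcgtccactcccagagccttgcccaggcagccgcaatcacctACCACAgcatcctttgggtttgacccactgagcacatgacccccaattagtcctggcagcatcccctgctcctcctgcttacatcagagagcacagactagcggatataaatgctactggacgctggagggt
Spp1, chr5:104434861-104435110, plus strand: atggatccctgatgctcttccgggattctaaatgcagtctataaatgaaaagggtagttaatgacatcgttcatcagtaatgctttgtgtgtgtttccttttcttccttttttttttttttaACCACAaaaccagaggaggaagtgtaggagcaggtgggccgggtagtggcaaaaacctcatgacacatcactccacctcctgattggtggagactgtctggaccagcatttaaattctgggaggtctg
Dmp1, chr5:104202367-104202612, plus strand: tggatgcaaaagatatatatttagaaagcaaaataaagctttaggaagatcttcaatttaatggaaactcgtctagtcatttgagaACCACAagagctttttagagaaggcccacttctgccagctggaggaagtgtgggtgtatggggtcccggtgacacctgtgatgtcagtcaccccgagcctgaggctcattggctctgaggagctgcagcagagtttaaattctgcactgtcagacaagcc
Ibsp, chr5:104299037-104299170, plus strand: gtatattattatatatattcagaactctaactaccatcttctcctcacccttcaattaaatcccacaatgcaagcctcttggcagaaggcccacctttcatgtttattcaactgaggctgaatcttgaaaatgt
The core began 132 bases before the RefSeq start of Bglap, 128 before that of Spp1 and 164 before that of Dmp1. The Ibsp stretch is the 134 bases that lie before both the RefSeq and the GENCODE start.

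In MSC, anti-PAPP-A treatment was accompanied by a lower level of Ibsp, the 1 member of 9 that passed the test over all genes. Alpl, Pth1r, Sp7, Bglap, Runx2 and Phex had negative and Spp1 and Dmp1 positive differences that did not pass. CPM values within MSC are scaled by TMM over the 10 MSC libraries, called the MSC scale here. Ibsp was at 4278, 4747 and 2737 CPM in control pools 3, 5 and 7 of batch A, and at 4930, 4817 and 4544 CPM in control pools 15, 17 and 19 of batch C. Treated pool 8 of batch A had 2177 CPM, and treated pools 16, 18 and 20 of batch C had 1995, 2308 and 2566 CPM. On the MSC scale each of the 4 treated libraries stood below each of the 6 controls, and the nearest control was the shallow pool 7. This held for 0.482% of the 15984 genes tested. On the scale set over all populations the Ibsp groups overlapped, with controls from 2498 to 5618 CPM and treated libraries from 2063 to 2924 CPM. With unscaled totals control pool 7 had 1491 CPM, below every treated library, which ran from 1899 to 2738 CPM. The separation of the groups thus depends on the scaling of this shallow library.

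The Ibsp mean was 4342 ± 819 CPM in controls (SD, n = 6) and 2261 ± 240 CPM in treated libraries (SD, n = 4), a ratio of 0.521. The log2 difference with batch as a term was -0.99 (SE 0.174, adjusted p = 0.0437, edgeR quasi-likelihood with Benjamini-Hochberg). It ranked 4 of 15984 genes by p. The test called 5 genes in all, 0.0313%, and 3 of them, 0.0188%, were lower in treated libraries; 676 genes had an unadjusted p under 0.05. Within batch C the log2 difference was -1.06 (adjusted p = 0.0258, edgeR), and within batch A the 1 treated library stood at a ratio of 0.555 to the control mean. The call was lost when control pool 3, 5, 15, 17 or 19 or treated pool 8, 16, 18 or 20 was left out, with edgeR adjusted p-values of 0.0633 to 0.419 and log2 differences of -1.06 to -0.92. It was also lost without the batch term (adjusted p = 0.951, edgeR) and with voom quality weights (adjusted p = 0.231).

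Of the transcription factors, Sp7 was at 89.5, 78.3 and 51.3 CPM in control pools 3, 5 and 7 and at 48.3, 75.1 and 86.2 CPM in control pools 15, 17 and 19. Treated libraries had 47.8 CPM in pool 8 and 30.1, 57 and 52.8 CPM in pools 16, 18 and 20. The groups overlapped through control pool 15. The log2 difference was -0.61 (SE 0.251, unadjusted p = 0.0244, adjusted p = 0.999, edgeR). Runx2 was at 279, 238 and 143 CPM in control pools 3, 5 and 7, at 215, 181 and 187 CPM in pools 15, 17 and 19, at 79.1 CPM in treated pool 8 and at 183, 188 and 175 CPM in treated pools 16, 18 and 20. The low Runx2 value was that of the shallow pool 8, where it rested on 43 counts, and the log2 difference of -0.47 (SE 0.247) became -0.10 without that library. Neither transcription factor passed the adjusted threshold.

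Alpl, the mineralisation enzyme, was at 126, 126 and 188 CPM in control pools 3, 5 and 7 and at 176, 279 and 329 CPM in pools 15, 17 and 19. Treated libraries had 81.0 CPM in pool 8 and 130, 161 and 121 CPM in pools 16, 18 and 20. Treated libraries stood below the controls of their own batch in both batches, although the pooled groups overlapped. In batch C alone 6.14% of all genes did so, and the share for both batches is not given here. Batch A had 1 treated library, pool 8, with 44 counts of Alpl, and control pool 7 had 33. The log2 difference was -0.90 (SE 0.210, adjusted p = 0.344, edgeR), rank 17 by p. DESeq2 gave Alpl an adjusted p of 0.0280 on the same libraries. Phex was at 205, 142 and 62.7 CPM in control pools 3, 5 and 7, at 80.3, 127 and 153 CPM in pools 15, 17 and 19, at 79.1 CPM in treated pool 8 and at 177, 120 and 97.1 CPM in treated pools 16, 18 and 20. Its groups overlapped in both batches, with a log2 difference of -0.15 (SE 0.315) over 10 libraries and 0.13 in batch C.

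Pth1r, the hormone receptor, was at 111, 124 and 125 CPM in control pools 3, 5 and 7 and at 233, 281 and 232 CPM in pools 15, 17 and 19. Treated libraries had 77.3 CPM in pool 8 and 153, 183 and 167 CPM in pools 16, 18 and 20. Batch C controls were higher than batch A controls, and on the MSC scale the treated libraries were below the controls within each batch. In batch C 6.14% of all genes were so placed. The batch A order rests on 42 counts in treated pool 8 and 22 in control pool 7. With unscaled totals it was not kept, as control pool 7 had 68.4 CPM and treated pool 8 had 84.1 CPM. The log2 difference was -0.59 (SE 0.173, adjusted p = 0.795, edgeR) and ranked 56 by p. DESeq2 gave Pth1r an adjusted p of 0.0439.

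Among the other matrix genes, Bglap was at 335, 180 and 958 CPM in control pools 3, 5 and 7 and at 145, 298 and 170 CPM in pools 15, 17 and 19. Treated libraries had 642 CPM in pool 8 and 37.6, 40.9 and 112 CPM in pools 16, 18 and 20. The highest library of each group was its shallow one. In batch C the treated libraries stood below the controls, as was so for 6.14% of all genes. The log2 difference was -0.91 (SE 0.682, adjusted p = 0.999, edgeR), and -1.69 without pool 8. Summed over Bglap, Bglap2 and Bglap3, which removes the split between copies, the batch C controls had 220, 442 and 249 CPM and the treated libraries 50.8, 76.5 and 176 CPM. The summed batch C groups did not overlap either, as was so in that direction for 6.14% of single genes.

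Spp1 was at 1765, 2676 and 1346 CPM in control pools 3, 5 and 7 and at 4917, 5624 and 4181 CPM in pools 15, 17 and 19. Treated libraries had 3437 CPM in pool 8 and 4657, 5902 and 5042 CPM in pools 16, 18 and 20. The controls of batch A were all below those of batch C, and the batch C treated libraries overlapped the controls. The log2 difference was 0.35 (SE 0.194, adjusted p = 0.999, edgeR), and 0.08 without pool 8. Dmp1 was at 29.3, 20.8 and 34.2 CPM in control pools 3, 5 and 7, at 15.9, 26.7 and 12.0 CPM in pools 15, 17 and 19, at 27.6 CPM in treated pool 8 and at 29.6, 35.0 and 44.8 CPM in treated pools 16, 18 and 20. In batch C treated Dmp1 stood above the controls, as was so for 4.9% of all genes. Over 10 libraries the log2 difference of Dmp1 was 0.77 (SE 0.329, unadjusted p = 0.0299, adjusted p = 0.999, edgeR).

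**Figure D2:**
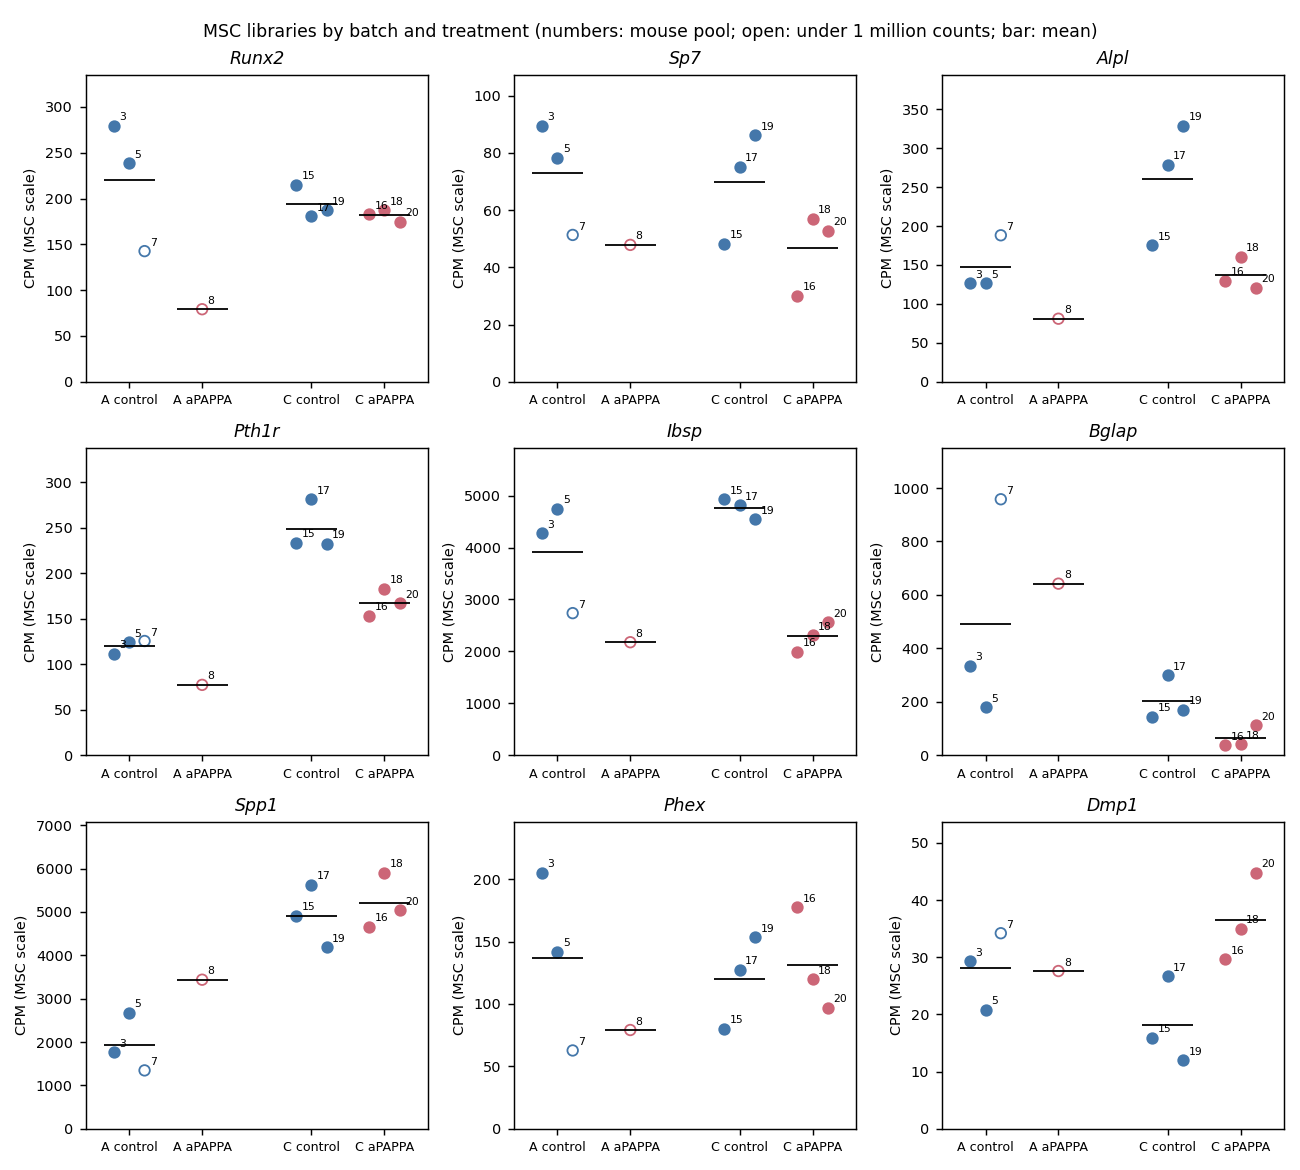
CPM of the 9 genes in the 10 MSC libraries (linear axes from 0), by batch and treatment, with the mouse pool beside each point, the mean as a bar and open circles for the 2 libraries under 1000000 counts. Ibsp points of the treated libraries, at 1995 to 2566 CPM, lie below all controls on this scale, which is set over the MSC libraries.

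Counted over the members, 7 of 9 log2 differences were negative, as were 52.8% of all genes tested, and the median was -0.59 against -0.03 over all genes. In batch C the groups did not overlap for 5 members: treated libraries were below for Ibsp, Alpl, Pth1r and Bglap (6.14% of all genes) and above for Dmp1 (4.9% of all genes). Neutrophil and erythroid markers had mostly positive differences in the same libraries. Of 12 neutrophil markers, 10 had positive differences with a median of 0.75, and 11 of 11 erythroid markers did with a median of 0.64, none of them past the threshold. In batch C the neutrophil sum ran from 1170 to 1703 CPM over controls and from 1634 to 2089 CPM over the treated pools. There the erythroid sum ran from 768 to 1786 CPM over controls and from 907 to 1206 CPM over treated libraries, and none of the 12 neutrophil markers was at 0 in any MSC library. The macrophage sum (12 markers, 9 tested, 5 with positive differences) ran from 102 to 191 CPM over batch C controls. Over the batch C treated pools it ran from 196 to 285 CPM. These ranges did not overlap, as was so in that direction for 4.9% of single genes. Over all MSC libraries the macrophage sum ran from 102 to 753 CPM in 6 controls and from 196 to 1102 CPM in 4 treated libraries, with up to 7 markers at 0 in a library. Without the 2 shallow MSC libraries the Ibsp log2 difference was -1.05. The part of the neutrophil, erythroid and macrophage markers in the members' values was not tested, in this or any other fit.

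**Figure D3:**
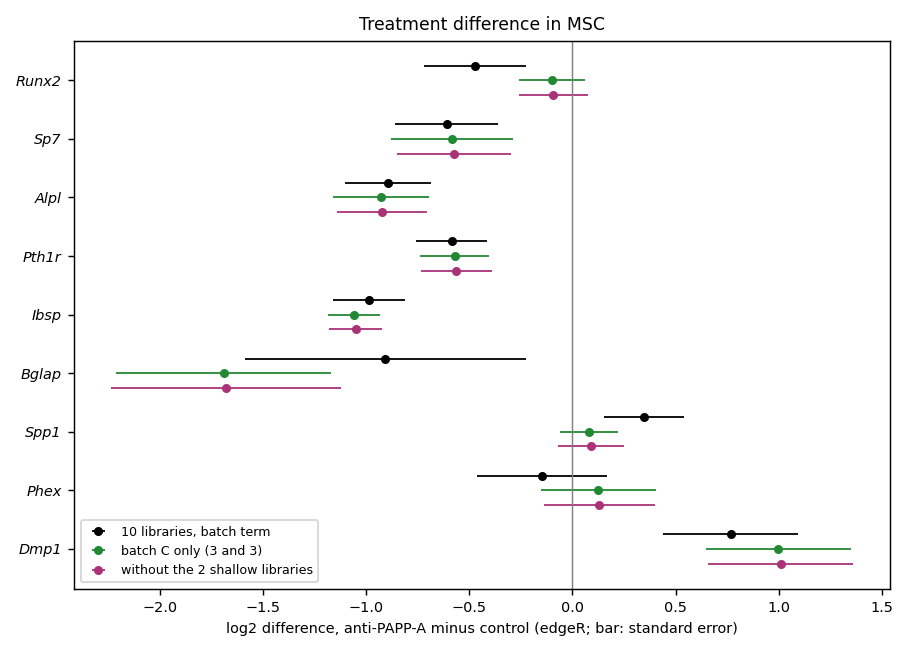
Log2 difference, anti-PAPP-A minus control, in MSC with its standard error for the 9 genes: all 10 libraries with a batch term (black), batch C alone (green) and without the 2 libraries under 1000000 counts (purple). Ibsp lies near -1 in all 3 fits, while Runx2, Bglap, Spp1 and Phex move between them.

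Other genes of the bone lineage gave few calls in MSC. None of 19 further osteoblast matrix genes tested passed, with 13 negative differences and a median log2 of -0.05. The summed level of the 20 listed matrix genes ran from 21129 to 24688 CPM over batch C controls and from 17474 to 18786 CPM over batch C treated libraries. These ranges did not overlap, as was so in that direction for 6.14% of single genes in batch C. In batch A the matrix sum was 13616 to 54701 CPM over controls and 31334 CPM in the treated library, which lay within the controls. The 2 smallest p-values among them were those of Tnc, a matrix glycoprotein (-0.34, SE 0.169, unadjusted p = 0.0595), and Mmp13, a collagenase (0.31, SE 0.169, unadjusted p = 0.0791), both with adjusted p = 0.999 (edgeR). None of 15 transcription factors of the lineage passed (median -0.01). Dlx6, a homeobox factor of the lineage, had a log2 difference of -0.57 (SE 0.364, adjusted p = 0.999, edgeR).

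None of 8 osteocyte genes passed (median 0.03). Of these, Ackr3 had 1.05 (SE 0.750) and Gja1, the gap junction protein of osteocytes, -0.16 (SE 0.184). None of 26 genes of PTH, BMP, Wnt and RANKL signalling passed (19 positive, median 0.15). Grem1, a BMP antagonist, had 360 ± 99.5 CPM in controls and 574 ± 106 CPM in treated libraries, with a log2 difference of 0.56 (SE 0.177, adjusted p = 0.825, edgeR), and Wif1, a Wnt antagonist, had -0.41 (SE 0.20).

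Of 19 stromal markers 1 passed: Igfbp5, an insulin-like growth factor binding protein that PAPP-A cleaves. It fell from 2328 ± 1334 CPM in 6 controls to 717 ± 126 CPM in 4 treated libraries, with a log2 difference of -1.43 (SE 0.242, adjusted p = 0.0437, edgeR), each treated library being below each control. Angpt1 had 0.65 (SE 0.182). The median over the stromal list was 0.13. No gene of the chondrocyte (5 tested, median -0.42), osteoclast (5, -0.11), endothelial (5, -0.06), macrophage (9, 0.30), plasma and B cell (9, -0.11) or megakaryocyte (4, -0.86) lists passed. The smallest p-values in the neutrophil and erythroid lists were those of Ltf (0.87, SE 0.223) and Ngp (0.74, SE 0.222), and of Gata1 (2.62, SE 0.973) and Klf1 (1.47, SE 0.688), none past the threshold. In the macrophage list they were those of Lyz2 (1.24, SE 0.324, unadjusted p = 0.00254, adjusted p = 0.748, edgeR) and Adgre1 (2.73, SE 1.41).

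The genes whose levels followed Ibsp most closely over the 10 MSC libraries, on log2(CPM + 1) centred within batch, were Micall1 (Pearson r = 0.95), Igfbp3 (0.95), C2 (0.94), BC039192 (0.93) and Olfml3 (0.93), among 9604 genes with a mean of at least 10 CPM. The most opposite were Gnai1 (-0.94) and Txnip (-0.92). These libraries share treatment groups and scaling, so the values are descriptions. Among the members, Pth1r had r = 0.85 with Ibsp (rank 39), Sp7 0.75 (rank 143), Alpl 0.63 and Runx2 0.60. Bglap had 0.32, Phex 0.23, Spp1 -0.14 and Dmp1 -0.67. Alpl and Pth1r varied together at 0.86. The neighbours on chromosome 5 did not vary as one: Spp1 and Dmp1 had 0.02 with each other.

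Outside MSC few members had enough counts to be tested, and none was called: 0 of 3 tested in HSC (where 0.0069% of all genes were called), 0 of 4 in each of CLP and GMP, 0 of 3 for MEP and 0 of 5 for Myeloid. In the latter 4 populations 0% of all genes were called. At an unadjusted p under 0.05 the edgeR test gave 1156 of 14494 genes for HSC and 29 of 12520 for CLP. It gave 195 of 15334 for GMP, 444 of 13307 for MEP and 437 of 16803 for Myeloid. Runx2 was tested in all 5, with log2 differences of -0.18 (SE 0.246) for HSC, -0.36 (SE 0.598) for CLP, -0.19 (SE 0.114) for GMP, -0.68 (SE 0.257) for MEP and 0.03 (SE 0.215) for Myeloid. In MEP, Runx2 was at 19.0, 36.0, 27.0 and 29.0 CPM in control pools 1, 3, 5 and 7 and at 13.5, 26.9, 13.0 and 16.0 CPM in treated pools 2, 4, 6 and 8. The MEP groups overlapped (unadjusted p = 0.0256, adjusted p = 0.999, edgeR). Spp1, also tested in all 5, ranged from -0.45 (SE 0.339) in Myeloid to 1.23 (SE 0.686) in HSC.

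In HSC, Ibsp was at 12.5 CPM (45 counts) in treated pool 4, at 0.191 CPM in treated pool 8 and at 0 in treated pools 2 and 6 (pool 6 being the shallowest library), against 0, 0.164 and 0.519 CPM in control pools 3, 5 and 7. It was left out of the HSC test for low counts, and passes without that filter (log2 4.04, SE 0.987, adjusted p = 0.0154, edgeR), where pool 4 holds nearly all treated counts. In Myeloid, Ibsp differed by batch. It was at 0.0325 to 0.102 CPM in batch B controls and 0 to 0.299 CPM in batch B treated libraries, and at 0.641 to 8.45 CPM in batch C controls and 7.11 to 9.92 CPM in batch C treated libraries. The stromal marker Cxcl12 was at 0.997 CPM or below in the 6 Myeloid libraries of batch B and at 9.85 to 131 CPM in those of batch C, and Lepr at 1.30 CPM or below and at 1.04 to 14.1 CPM. Among batch C controls, Ibsp, Cxcl12 and Lepr were each highest in pool 15 and lowest in pool 17. The sum of all 19 stromal markers went the other way, from 3103 to 4694 CPM in batch B, with 2 to 9 markers at 0, and from 1687 to 2629 CPM in batch C, with 0 to 1 at 0. Their part in the Ibsp values was not tested. The Myeloid log2 difference for Ibsp with batch as a term was 0.99 (SE 0.761, adjusted p = 0.995, edgeR).

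The difference in response between MSC and the mean of the other sorted populations passed for 0 of 9 members, where 2.57% of 21525 genes passed. For Ibsp that difference was -2.29 (SE 1.34, adjusted p = 0.503, edgeR) and for Alpl -1.21 (SE 0.894). At an unadjusted p under 0.05 (edgeR) it passed for 2953 of the 21525 genes and again for 0 of 9 members. A count of 0 among 9 says nothing particular of the members at either threshold.

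In CLP, libraries of 1 control and 1 treated pool held bone matrix transcripts. Bglap was at 114 CPM (419 counts) in control pool 1 and 53.4 CPM (266 counts) in treated pool 2, and had 0 counts in the other 6 libraries. Dmp1 was at 12.0 CPM in pool 1 and 57.4 CPM in pool 2, against 0 to 4.88 CPM in the other 6. The level in pool 2 exceeded the highest MSC library on the same scale, which had 51.0 CPM. Ibsp was at 5.44 and 12.7 CPM in pools 1 and 2 and at 0.363 CPM or below in the others. Runx2 was also highest in pools 1 and 2, at 252 and 163 CPM, against 49.7 to 121 CPM in the other 6. Col1a1, the main bone collagen chain, stood at 292 and 323 CPM in these libraries and at 2.77 CPM or below in the others.

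The same CLP libraries did not carry the members in the proportions of MSC. Their Ibsp level was below that of Bglap and Dmp1, whereas in control MSC the means were 4524 CPM for Ibsp, 344 for Bglap and 23.5 for Dmp1. Alpl, at 0.544 and 1.41 CPM in pools 1 and 2, was lower there than in the other 6 CLP libraries, at 5.54 to 25.0 CPM. The stromal genes Cxcl12 and Lepr were at 5.17 and 1.63 CPM in pool 1 and at 65.1 and 8.43 CPM in pool 2, and the neutrophil sum was 11233 and 11270 CPM against 4780 to 9895 CPM in the others. The part of these cell type markers in the CLP values was not tested. The CLP log2 difference for Dmp1 was 1.72 (SE 1.72) with all libraries and -2.0 without pool 2, and that for Spp1 was 0.77 (SE 0.854) and -0.67. Without both libraries, Runx2 had -0.14, Alpl 0.23 and Spp1 0.11, none past the threshold. Also without both, 9 of 9 members stayed called in MSC against the other sorted populations. With all libraries that comparison called 48.8% of all genes in either direction. In it, members with almost no counts outside MSC could only be called higher.

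**Figure D4:**
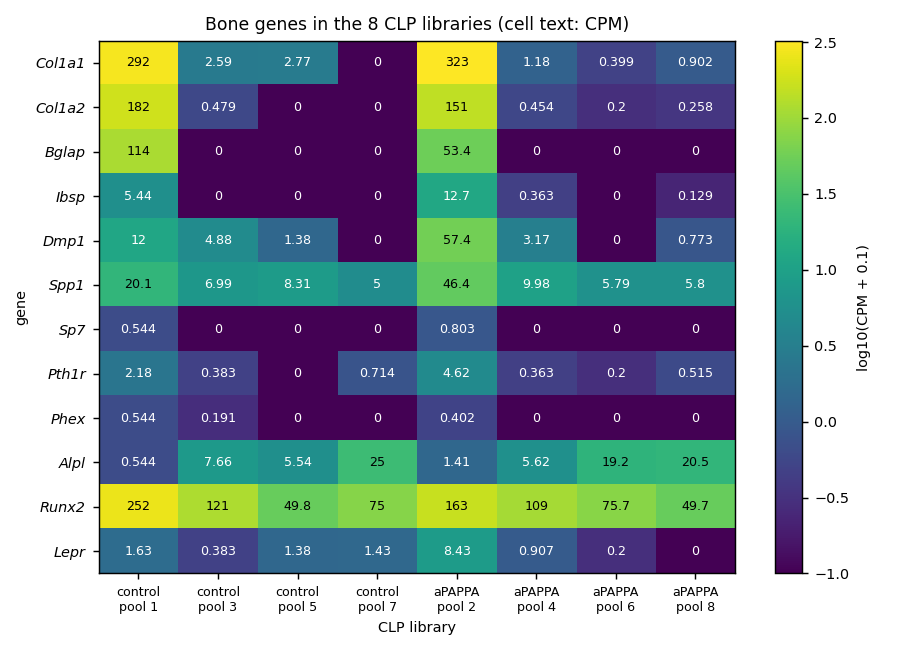
CPM, printed in each cell and coloured as log10(CPM + 0.1), of the 9 members and of Col1a1, Col1a2 and Lepr in the 8 CLP libraries. Control pool 1 and treated pool 2 carry Col1a1, Col1a2 and Bglap, which are at or near 0 in the other 6, while Alpl is lowest in these 2 libraries.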

How the data were processed

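Total RNA of unsorted or sorted marrow was made into stranded libraries (NEBNext Ultra II Directional), per the labels' protocols. Per the submitters' processing notes, reads were checked with FastQC 0.11.5 and quantified by Salmon against mm10. The authors deposited expected counts per gene, as whole numbers. Neither Salmon's version nor its annotation was given in the sources used here. Repeated lines of a gene and sample never differed (0 pairs), and 1 line was kept. No 2 libraries of a group were identical (0 of 102 pairs). Nothing in the labels says that pools were independent cohorts, so p-values measure the spread between pools.

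Counts were analysed with edgeR 4.0.16 in R 4.3.3: filterByExpr, TMM scaling, robust quasi-likelihood tests and Benjamini-Hochberg adjustment over all genes tested at 0.05. Batch was a term in MSC, in Myeloid and across populations. DESeq2 1.42.0 and limma 3.58.1 (voom) served as alternatives, next to other scaling, no filter, no batch term and leaving out each pool. Scripts were tested on simulated data. Pool numbers mark the same mice in several populations, per the labels. Libraries of the same pool had a median correlation of deviations of 0.09 (49 pairs) and those of different pools -0.02 (143 pairs). Control and treated pools share no number.

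The members and the 13 other lists were chosen with earlier results of these data known. Named genes were all members and, per other list, those past the threshold or otherwise the 2 smallest p-values, plus the 5 genes most and 2 least like Ibsp in MSC. The values of 1 gene that this rule names are not reported here. Positions and lengths came from GENCODE M21 (GRCm38), and promoters from RefSeq (GRCm38.p6).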

Additional observations from a re-analysis of the deposited data

Results flagged for a closer look

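Of 106 groups of 4 or 6 libraries looked at, 1 gene each, 27 had a highest or lowest library far from the others by Dixon's ratio. The cutoffs are set to flag about 1 in 20 groups of normally distributed values. That rate does not hold for CPM near 0, where 1 count among libraries at 0 is always flagged. The count of 27 can therefore not be set against it. Values are CPM. In CLP, the flagged libraries were control pool 1 for Bglap (114), Ibsp (5.44) and Sp7 (0.544), and treated pool 2 for Bglap (53.4), Dmp1 (57.4), Ibsp (12.7), Phex (0.402), Pth1r (4.62), Sp7 (0.803) and Spp1 (46.4). In MSC, the shallow libraries were flagged: control pool 7 for a high Bglap (958) and a low Ibsp (2737), and treated pool 8 for a high Bglap (642) and a low Runx2 (79.1).

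In HSC, treated pool 4 was flagged for Ibsp (12.5), treated pool 2 for Bglap (1.15) and Phex (1.15) and treated pool 8 for Sp7 (0.0953). In Myeloid, the flagged libraries were control pool 11 for Bglap (3.72) and Pth1r (1.28), control pool 15 for Ibsp (8.45) and Sp7 (0.220), and treated pool 12 for Bglap (2.91). In GMP, treated pool 4 was flagged for Alpl (0.152) and Pth1r (1.06), and control pool 5 for Bglap (0.0311). In MEP, control pool 1 was flagged for Ibsp (0.0696). Several of the values under 1 CPM rest on single counts. No interaction of treatment with population was called for a member (0 calls).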

How the results depend on the processing

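In MSC, the count of members called under treatment (1) became 3 with DESeq2, 2 without the filter, and 0 with voom quality weights, without the batch term or in the joint fit of 6 populations. Leaving out 1 pool gave 0 to 1, with the call kept only without pool 7. The 5 genes called became 43 with DESeq2, 55 without the filter, 0 with voom, 3 in batch C, 1 without the batch term, 2 without libraries under 1000000 counts, 649 in the joint fit and 0 to 4 leaving out 1 pool. The cause of these moves was not tested. The Ibsp log2 difference stayed between -1.06 and -0.92 under 19 alternatives and passed under 7 of them, with adjusted p-values from 4.70e-06 to 0.951. Phex reversed to 0.13 in batch C and to 0.13 without the shallow libraries, and ran from -0.38 to 0.13 leaving out 1 pool. The HSC count of 0 members became 1 without the filter.

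Leaving out 1 pool also reversed differences that had not passed: HSC Spp1 (-0.037 to 1.61), CLP Alpl (-0.16 to 1.35), Runx2 (-0.84 to 0.35), Spp1 (-0.67 to 1.52) and Dmp1 (-2.0 to 2.80), MEP Spp1 (-0.080 to 0.33) and Dmp1 (-0.64 to 0.45), and Myeloid Runx2 (-0.14 to 0.15). With pool as a replicate block, 9 of 9 members stayed higher in MSC in both population comparisons, and the block changed no other call. For members with almost no counts outside MSC no other direction was open. In either direction, 9092 of 21384 genes were called against the sorted populations and 8546 of 17169 against WBM. The main fits called 28.7% and 23.1% of all genes higher in MSC. In the difference of responses the block turned Runx2 to 0.23 and Dmp1 to 0.70, and leaving out libraries under 1000000 counts turned Runx2 to 0.30 and Spp1 to -0.11. The fit without CLP pools 1 and 2 was chosen after seeing the data. Low counts limit the members outside MSC and in MSC pools 7 and 8.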

Other observations

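The matrix genes stood in another order in unsorted marrow than in sorted MSC. Per kilobase of exon, Bglap had a mean of 45.5 ± 44.3 CPM and Ibsp of 3.33 ± 3.30 CPM in WBM (SD, n = 4), whereas control MSC had 557 ± 441 for Bglap and 2188 ± 547 for Ibsp (SD, n = 6). Bglap exceeded Ibsp in each of the 4 WBM libraries, at 13.5 and 0.997 CPM per kilobase in pool 1, 19.9 and 1.01 in pool 5, 110.1 and 3.31 in pool 7 and 38.7 and 8.01 in pool 15. On the same per-kilobase measure Ibsp exceeded Bglap in 5 of the 6 control MSC libraries, and in the shallow pool 7 Bglap was higher, at 1550 against 1324 CPM per kilobase on the MSC scale. WBM pool 7 had the highest Bglap level of WBM, and MSC pool 7, from the same mice, the highest of MSC. This is a pattern noticed in the values and was not tested.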
